A study of Mus musculus with 6 samples.

Results

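Several families of growth factors are known to act on the oligodendrocyte lineage, and the RNA of 10 of their genes was followed here in postnatal mouse brain with and without Angptl2, which encodes the secreted angiopoietin-like protein 2. The genes are 4 ligands (Fgf2, Pdgfa, Igf1 and Nrg1) and 6 receptors (Fgfr1, Fgfr2, Igf1r, Erbb3, Erbb4 and Egfr). They were chosen by symbol as named members of the FGF, PDGF, IGF and neuregulin pathways, and all 10 were present among the 54532 gene identifiers of the expression table. RNA-seq compared 3 Angptl2-/- brain samples with 3 Angptl2+/+ brain samples, all from mice at postnatal day 15. The Angptl2-/- allele is a germline deletion of exon 2, obtained by mating floxed males that carry a Stra8-cre transgene, active in the male germ line, with wild-type females. The labels name all cell types of the brain as the material. Neither they nor the study's methods give the dissection or state that each sample was a different mouse. The p-values thus measure the spread between samples, which may be technical in part.

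As background, platelet-derived growth factor A drives the division of oligodendrocyte precursors, which carry its receptor, and fibroblast growth factor 2 keeps these precursors dividing. Insulin-like growth factor 1 promotes the survival of the lineage and the growth of myelin through the receptor tyrosine kinase Igf1r. Neuregulin 1 binds Erbb3 or Erbb4, members of the same receptor family as Egfr. Erbb3 has little kinase activity of its own and signals in a dimer with a partner such as Erbb2. Much of Erbb4 in the forebrain is known from interneurons, so RNA of the whole tissue does not tell which cells made a transcript, and fewer cells of a type cannot be told apart from less RNA per cell.

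The values are FPKM, the fragments per kilobase of a gene scaled to the depth of its library. Multiplied by gene length they came to 17127250 to 18928903 fragments per library. Angptl2 itself had 0.166, 0.320 and 0.126 FPKM in the Angptl2-/- libraries, against 0.660, 0.958 and 0.290 FPKM in the Angptl2+/+ libraries (20, 34 and 13 fragments, against 74, 107 and 31). Angptl2-/- replicate 2 was thus above Angptl2+/+ replicate 3, and the difference in log2(FPKM + 0.1) of -1.21 had a two-sided exact permutation p of 0.2, where the smallest that 3 against 3 allows is 0.1. Because deletion of 1 exon can leave the rest of a transcript, this level is a weak check of the labels. Several other features set libraries apart. Gapdh, a glycolytic enzyme gene, had 0.480 to 0.606 FPKM in the Angptl2-/- libraries and 0.691 FPKM in Angptl2+/+ replicate 1, against 26.7 and 21.2 FPKM in Angptl2+/+ replicates 2 and 3. Xist, the RNA of the inactive X chromosome, was at 42.2 FPKM in Angptl2-/- replicate 2, and at 27.4 and 27.9 FPKM in Angptl2+/+ replicates 1 and 2. It was at 0.0697 FPKM or below in the other libraries. Both sexes were thus present in each genotype, so its samples did not all come from the same mouse. The sexes were unequally spread over the genotypes, and no test adjusts for sex. Summed choroid plexus markers were 104 to 934 FPKM in Angptl2-/- libraries and 1.67 to 7.72 FPKM in Angptl2+/+ libraries. In the Angptl2-/- libraries most of that sum was Ttr, the transthyretin gene (141, 916 and 99.6 FPKM in Angptl2-/-, against 2.34, 4.29 and 0.580 FPKM in Angptl2+/+).

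The 250 bases before the start of 3 receptor or ligand genes are printed: Igf1 and Erbb4, the genes with an unadjusted p under 0.05, and Egfr, the other gene with every Angptl2-/- library above all controls. They were chosen with these values known and were taken from RefSeq on GRCm38.p6, which had a window for 7 of the 10 genes. They are written 5′ to 3′ on the strand of the gene. Capitals mark a GC box, searched as GGGCGG or its reverse complement CCGCCC. The windows are chr10:87860861-87861110 on the plus strand for Igf1, chr11:16751953-16752202 on the plus strand for Egfr and chr1:69108060-69108309 on the minus strand for Erbb4. GENCODE M21 starts Igf1 further upstream, so the Igf1 window lies inside the span of that annotation.
Igf1: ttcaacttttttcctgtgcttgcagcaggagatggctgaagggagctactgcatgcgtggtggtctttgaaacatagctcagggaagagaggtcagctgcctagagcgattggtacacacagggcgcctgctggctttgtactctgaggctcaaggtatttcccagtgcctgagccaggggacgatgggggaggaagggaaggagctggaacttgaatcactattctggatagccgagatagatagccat
Egfr: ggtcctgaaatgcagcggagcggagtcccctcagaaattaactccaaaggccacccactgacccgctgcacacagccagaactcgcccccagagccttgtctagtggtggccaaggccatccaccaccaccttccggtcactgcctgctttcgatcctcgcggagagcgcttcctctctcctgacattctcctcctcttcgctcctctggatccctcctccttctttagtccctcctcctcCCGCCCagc
Erbb4: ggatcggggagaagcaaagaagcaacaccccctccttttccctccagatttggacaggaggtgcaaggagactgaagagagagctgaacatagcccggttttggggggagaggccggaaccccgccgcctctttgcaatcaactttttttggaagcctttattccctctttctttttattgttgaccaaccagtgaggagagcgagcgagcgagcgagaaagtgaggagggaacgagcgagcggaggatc
The Egfr window holds 1 GC box near its 3′ end, and the Igf1 and Erbb4 windows hold none. Of the other matched genes, Fgf2 (1 box), Igf1r (2 boxes) and Pdgfa (1 and 2 boxes in its 2 windows) also hold one, and Fgfr2 holds none, so that 4 of the 7 matched genes have a GC box. A GC box was found in 32.7% of all 32851 RefSeq promoter windows of this length, a share of windows and not of genes. Like that of Igf1, the Fgf2, Pdgfa and Fgfr2 windows lie inside the GENCODE M21 span of their gene. A TATA box, searched as TATAAA or its reverse complement TTTATA, is in 12.4% of all windows and in none of these 3. Their GC content was 52.8% for Igf1, 60.8% for Egfr and 54% for Erbb4, beside a median of 52.4% over all windows. A match of letters is only a description of the window.

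Across the 10 genes the largest differences by size were a lower mean of Erbb3 and higher means of Igf1 and Erbb4 in Angptl2-/- brains. None of the 10 genes passed the test across all genes. In limma on log2(FPKM + 0.1), 0 of the 14862 genes whose mean FPKM reached 0.5 had an adjusted p under 0.05 (0% of genes), and the smallest adjusted p was 0.273. voom on the recovered fragments also called 0 genes. At an unadjusted p under 0.05, 2 of the 10 genes, Igf1 and Erbb4, were higher in Angptl2-/-, where 7.09% of all tested genes were, and 0 of the 10 were lower, where 9.12% were. With a correction for gene length Igf1 was higher and Fgfr2 and Erbb3 were lower at that threshold, and Erbb4 did not reach it. With quantile normalization Igf1 and Erbb4 were higher and Erbb3 was lower. By quantile normalization the genes past this unadjusted threshold were 1325 higher and 1150 lower in Angptl2-/-, against 1054 higher and 1355 lower in FPKM as deposited. Every Angptl2-/- library lay above every Angptl2+/+ library for Igf1 and Egfr, 2 of the 10 genes, beside 10.7% of all tested genes. The Egfr groups overlapped after quantile normalization and after the GC correction. Those of Erbb4 separated after quantile normalization, and those of Nrg1 after the length correction, with Angptl2-/- lower for Nrg1. Every Angptl2-/- library lay below every Angptl2+/+ library for Fgfr2, 1 of the 10 genes, beside 11.8% of all tested genes. The other 7 genes overlapped between the genotypes. The log2 fold change, Angptl2-/- minus Angptl2+/+, was positive for 7 genes and negative for 3, with a median of 0.02 over the 10 genes and -0.00 over all tested genes. Counts of 0 to 2 among 10 genes are not read as a result about these genes.

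**Figure D1:**
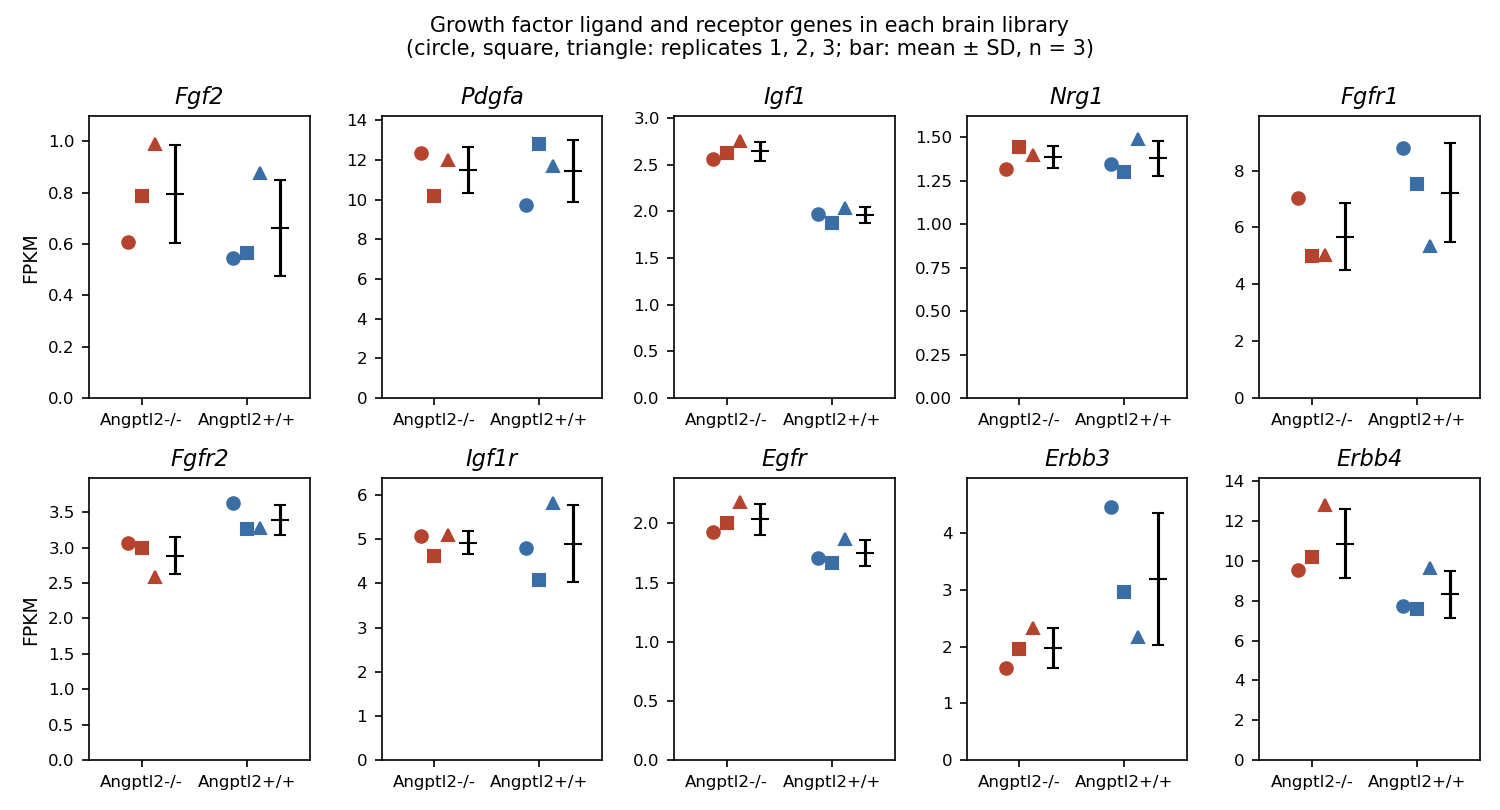
FPKM (vertical axes, each from 0) of the 4 ligand genes and 6 receptor genes in the 3 Angptl2-/- libraries (red, left) and the 3 Angptl2+/+ libraries (blue, right), with symbols for replicates 1 to 3 and the mean ± SD beside them. Igf1 separates the genotypes with little spread (2.55 to 2.75 FPKM in Angptl2-/-, 1.87 to 2.03 FPKM in Angptl2+/+), whereas Erbb3 has its widest spread within Angptl2+/+ (2.17 to 4.45 FPKM).

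Averaged over the 6 libraries, the mean levels from high to low were Pdgfa (11.5 FPKM), Erbb4 (9.59), Fgfr1 (6.45), Igf1r (4.91), Fgfr2 (3.14), Erbb3 (2.58), Igf1 (2.30), Egfr (1.89), Nrg1 (1.38) and Fgf2 (0.728 FPKM). FPKM is a level per gene length, here the summed length of all annotated exons, used in these samples or not. Neither that nor GC content or exonic bases shared with other genes was adjusted for, so the order between genes is only rough. Neighbours in this order were clearly apart, with ranges over the 6 libraries that did not touch, only between Igf1r and Fgfr2, between Egfr and Nrg1, and between Nrg1 and Fgf2. All other neighbours overlapped over the 6 libraries, although within each library Igf1 was above Egfr in 6 of 6.

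In the FGF family, Fgf2 (ENSMUSG00000037225, chr3:37348346-37410108, plus strand, GRCm38) had the lowest level of the 10 genes. This ligand signals through Fgfr1 and Fgfr2 with heparan sulphate as a cofactor. It had 0.607, 0.786 and 0.990 FPKM in Angptl2-/- brains, against 0.545, 0.564 and 0.877 FPKM in Angptl2+/+ brains. Replicate 3 was the highest library of each genotype, and the groups overlapped. Its log2 fold change was 0.24 (SE 0.31, 95% interval -0.50 to 0.97, limma adjusted p = 0.719), the widest interval of the 10 genes, on 66 to 110 fragments per library. It was 0.08 without Angptl2-/- replicate 3, 0.13 and 0.15 without Angptl2+/+ replicates 1 and 2, 0.39 without Angptl2-/- replicate 1 and 0.43 without Angptl2+/+ replicate 3. Fgf2 shares 640 exonic bases with Nudt6 on the opposite strand (0.351 to 0.707 FPKM), and the strand setting of the counting is not given in the sources used here, so reads of the shared bases cannot be told apart.

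Fgfr1 (ENSMUSG00000031565, chr8:25513654-25575718, plus strand) encodes the FGF receptor of higher FPKM among those followed here. It had 7.02, 5.0 and 5.01 FPKM in Angptl2-/- brains, against 8.78, 7.51 and 5.36 FPKM in Angptl2+/+ brains. Replicate 1 was the highest of each genotype, Angptl2+/+ replicate 3 was close to the lower Angptl2-/- libraries, and the groups overlapped. On the log2 scale the genotypes differed by -0.33 (SE 0.22, 95% interval -0.84 to 0.18, limma adjusted p = 0.452). The difference was -0.18 without Angptl2+/+ replicate 1 and -0.53 without Angptl2+/+ replicate 3, where its unadjusted limma p was under 0.05.

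Fgfr2 (ENSMUSG00000030849, minus strand) encodes the receptor that maturing oligodendrocytes are known to carry. Its FPKM was 3.07, 2.99 and 2.59 in Angptl2-/- brains, against 3.63, 3.26 and 3.27 in Angptl2+/+ brains. All Angptl2-/- libraries were below all Angptl2+/+ libraries, by a narrow gap. The difference in log2(FPKM + 0.1) was -0.23 (SE 0.13, 95% interval -0.53 to 0.07, limma adjusted p = 0.400). GENCODE M21 draws this gene from 130162451 to 133123350 on chromosome 7, a span that runs over many neighbouring genes. Fgfr2 shares 314 exonic bases with 1 of them, Ctbp2, on the same strand (2.06 to 3.62 FPKM), and reads of those bases cannot be told apart.

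In the PDGF family, Pdgfa (ENSMUSG00000025856, chr5:138976014-138997370, minus strand) had the highest mean FPKM of the 10 genes. This ligand acts on precursors through Pdgfra. It had 12.3, 10.2 and 12 FPKM in Angptl2-/- brains, against 9.75, 12.8 and 11.7 FPKM in Angptl2+/+ brains. The genotypes covered the same range, with the lowest and the highest library both Angptl2+/+. Its fold change on the log2 scale was 0.01 (SE 0.14, 95% interval -0.31 to 0.34, limma adjusted p = 0.972), so differences of up to that size in either direction lie inside the interval. Pdgfa shares 813 exonic bases with 6330403L08Rik on the opposite strand, which had 3.47 to 5.69 FPKM, and reads of those bases cannot be told apart. Pdgfra had 11.7, 11.2 and 12 FPKM in Angptl2-/- brains, against 11.8, 10.6 and 9.14 FPKM in Angptl2+/+ brains. This receptor, a marker of the precursors themselves, also overlapped between the genotypes (log2 fold change 0.16, limma adjusted p = 0.516).

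In the IGF family, Igf1 (ENSMUSG00000020053, chr10:87858265-87937042, plus strand) showed the smallest p of the 10 genes. It encodes a secreted ligand that neurons, microglia and other brain cells can make. Its FPKM was 2.55, 2.62 and 2.75 in Angptl2-/- brains, against 1.97, 1.87 and 2.03 in Angptl2+/+ brains. The lowest Angptl2-/- library was above the highest Angptl2+/+ library, with a gap wider than the range within either genotype. The means were 2.64 ± 0.0991 FPKM in Angptl2-/- and 1.96 ± 0.0832 FPKM in Angptl2+/+ (SD, n = 3 each), a ratio of 1.35. The log2 fold change was 0.41 (SE 0.13, 95% interval 0.11 to 0.71, limma p = 0.0137, adjusted p = 0.273), and the two-sided exact permutation p was 0.1, the smallest possible. The libraries held 329 to 485 fragments of Igf1. Counting alone gives a coefficient of variation of 5.01% at that depth, and the observed values were 3.75% in Angptl2-/- and 4.25% in Angptl2+/+.

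Its receptor Igf1r (ENSMUSG00000005533, chr7:67952827-68233668, plus strand) had 5.07, 4.62 and 5.09 FPKM in Angptl2-/- brains, against 4.80, 4.07 and 5.81 FPKM in Angptl2+/+ brains. The Angptl2-/- values lay inside the range of the Angptl2+/+ values. Igf1r had a log2 fold change of 0.02 (SE 0.15, 95% interval -0.33 to 0.37, limma adjusted p = 0.955). The interval of Igf1r thus overlaps that of its ligand, and whether the 2 genes differ in their response was not tested.

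In the neuregulin family, Nrg1 (ENSMUSG00000062991, chr8:31814551-32884029, minus strand) was the gene with the log2 fold change closest to 0. It encodes the axonal ligand of Erbb3 and Erbb4. It had 1.32, 1.44 and 1.40 FPKM in Angptl2-/- brains, against 1.35, 1.30 and 1.49 FPKM in Angptl2+/+ brains. The libraries of the genotypes interleaved within a narrow range. The genotypes differed by 0.01 on the log2 scale (SE 0.17, 95% interval -0.38 to 0.40, limma adjusted p = 0.984). Its spread of 4.46% in Angptl2-/- and 7.22% in Angptl2+/+ (coefficients of variation) was near the 6.32% that counting gives at 237 to 262 fragments.

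Erbb3 (ENSMUSG00000018166, chr10:128567523-128589652, minus strand), a neuregulin receptor of oligodendrocyte and Schwann cell lineages, had the largest difference in size. Its FPKM was 1.63, 1.95 and 2.33 in Angptl2-/- brains, against 4.45, 2.96 and 2.17 in Angptl2+/+ brains. Angptl2+/+ replicate 1 stood far above the rest, and Angptl2-/- replicate 3 was above Angptl2+/+ replicate 3. The means were 1.97 ± 0.352 FPKM in Angptl2-/- and 3.19 ± 1.16 FPKM in Angptl2+/+ (SD, n = 3 each), a ratio of 0.617. The log2 fold change was -0.62 (SE 0.27, 95% interval -1.25 to 0.00, limma adjusted p = 0.311). It was -0.36 without Angptl2+/+ replicate 1 and -0.86 without Angptl2+/+ replicate 3, where its unadjusted limma p was under 0.05. Erbb2, the kinase that Erbb3 pairs with, was looked up after the values of Erbb3 were seen. It had 0.651, 0.466 and 0.316 FPKM in Angptl2-/- brains, against 0.774, 0.648 and 0.475 FPKM in Angptl2+/+ brains. These levels were low and overlapped (log2 fold change -0.36, limma adjusted p = 0.632).

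Erbb4 (ENSMUSG00000062209, chr1:68032186-69108059, minus strand) was the receptor gene of highest mean FPKM among the 10 genes. It had 9.54, 10.2 and 12.8 FPKM in Angptl2-/- brains, against 7.73, 7.57 and 9.65 FPKM in Angptl2+/+ brains. Replicate 3 was the highest of each genotype, and Angptl2+/+ replicate 3 was just above Angptl2-/- replicate 1, so the groups overlapped. The means were 10.9 ± 1.73 FPKM in Angptl2-/- and 8.32 ± 1.16 FPKM in Angptl2+/+ (SD, n = 3 each), a ratio of 1.31. Erbb4 had a log2 fold change of 0.38 (SE 0.15, 95% interval 0.02 to 0.74, limma adjusted p = 0.295), on 1662 to 2594 fragments per library. Its unadjusted limma p was above 0.05 without Angptl2-/- replicate 2 or 3 and without Angptl2+/+ replicate 1 or 2, with log2 fold changes of 0.42, 0.25, 0.33 and 0.32 in that order. The libraries without Xist overlapped (9.54 and 12.8 FPKM in Angptl2-/-, 9.65 FPKM in Angptl2+/+), and those with Xist did not (10.2 FPKM in Angptl2-/-, 7.73 and 7.57 FPKM in Angptl2+/+). Each of these comparisons has only 1 library on a side, so they do not show whether the difference depends on sex, which was not tested.

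Egfr (ENSMUSG00000020122, chr11:16752203-16918158, plus strand), the receptor of EGF and transforming growth factor alpha, had 1.92, 2.0 and 2.18 FPKM in Angptl2-/- brains, against 1.71, 1.66 and 1.87 FPKM in Angptl2+/+ brains. All Angptl2-/- libraries were above all Angptl2+/+ libraries, though Angptl2-/- replicate 1 and Angptl2+/+ replicate 3 nearly met. The means were 2.04 ± 0.129 FPKM in Angptl2-/- and 1.75 ± 0.109 FPKM in Angptl2+/+ (SD, n = 3 each). Egfr had a log2 fold change of 0.21 (SE 0.14, 95% interval -0.13 to 0.54, limma adjusted p = 0.477).

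The GC content of a gene moved with its fold change across the whole table. Over 14845 tested genes the Pearson correlation of GC content and log2 fold change was -0.49 and the Spearman correlation -0.64, across genes that share libraries and are not independent replicates. The tested genes were divided into 5 equal bins of GC content. In the bin of the lowest GC content (18.1 to 44.6%) the median log2 fold change was 0.26, and 21.7% of genes were higher in Angptl2-/- at an unadjusted limma p under 0.05. In the bin of the highest GC content (55.8 to 84.2%) it was -0.31, and 30.3% of genes were lower. Erbb4 (41.1%) and Igf1 (43.6%) belong to the lowest bin, and Egfr (46.3%) and Fgf2 (45.8%) to the next one, with a median of 0.13. These are the 4 genes with the highest fold changes of the 10. Igf1 lay 0.15 above the median of its bin, Erbb4 0.11 and Egfr 0.08. In the middle bin, with a median of -0.00, were Nrg1 (0.01 above), Igf1r (0.03 above), Fgfr2 (a difference of -0.22) and Erbb3 (a difference of -0.62). Fgfr1 (54.9%) was in the bin above, with a difference of -0.20 from its median of -0.13. Pdgfa (57.1%) was in the highest bin, where its log2 fold change of 0.01 was 0.32 above the median.

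**Figure D2:**
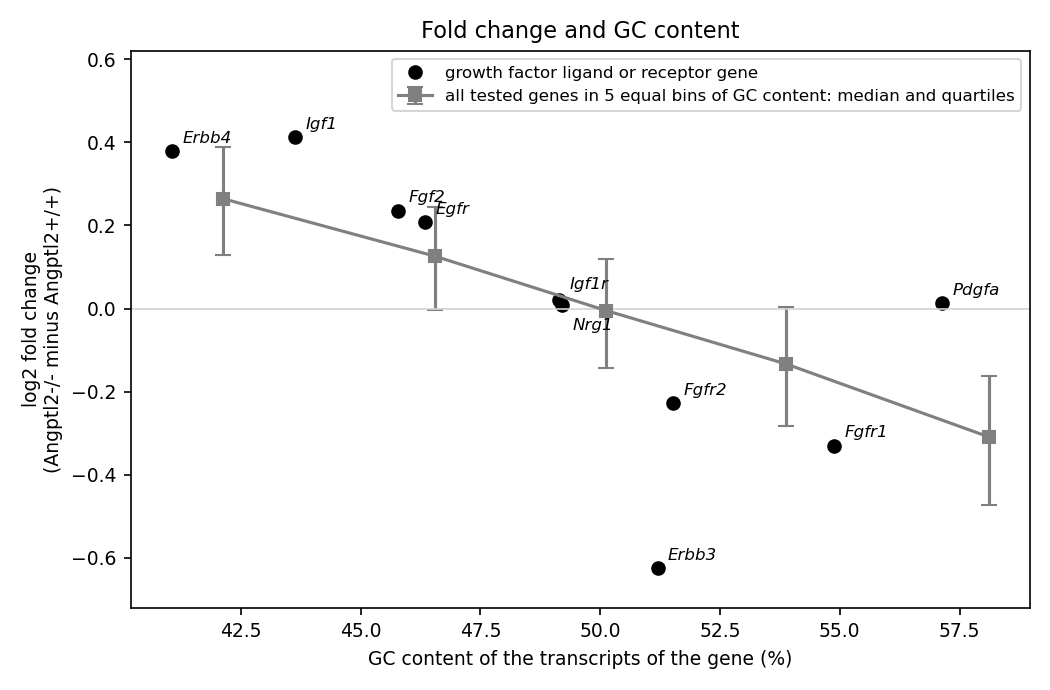
Log2 fold change, Angptl2-/- minus Angptl2+/+ (vertical axis), against the GC content of the gene in percent (horizontal axis) for the 10 genes (black), with the median and quartiles of all tested genes in each of 5 equal bins of GC content (grey). The grey medians run from 0.26 to -0.31, Igf1 and Erbb4 sit at the low-GC end just above them, and Erbb3 and Pdgfa are the genes farthest from them.

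A loess correction of each library for GC content took the Pearson correlation to 0.0056. This left a log2 fold change of 0.21 for Igf1, 0.11 for Erbb4, 0.08 for Egfr and 0.09 for Fgf2. Erbb3 kept -0.57, and Fgfr1 and Fgfr2 were at -0.15 and -0.16. Pdgfa moved to 0.28. After the correction 0 of the 10 genes had an unadjusted p under 0.05, where 3.24% of all tested genes were higher and 3.13% lower in Angptl2-/-. A true difference shared by genes of like GC content would be removed by the same correction.

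**Figure D3:**
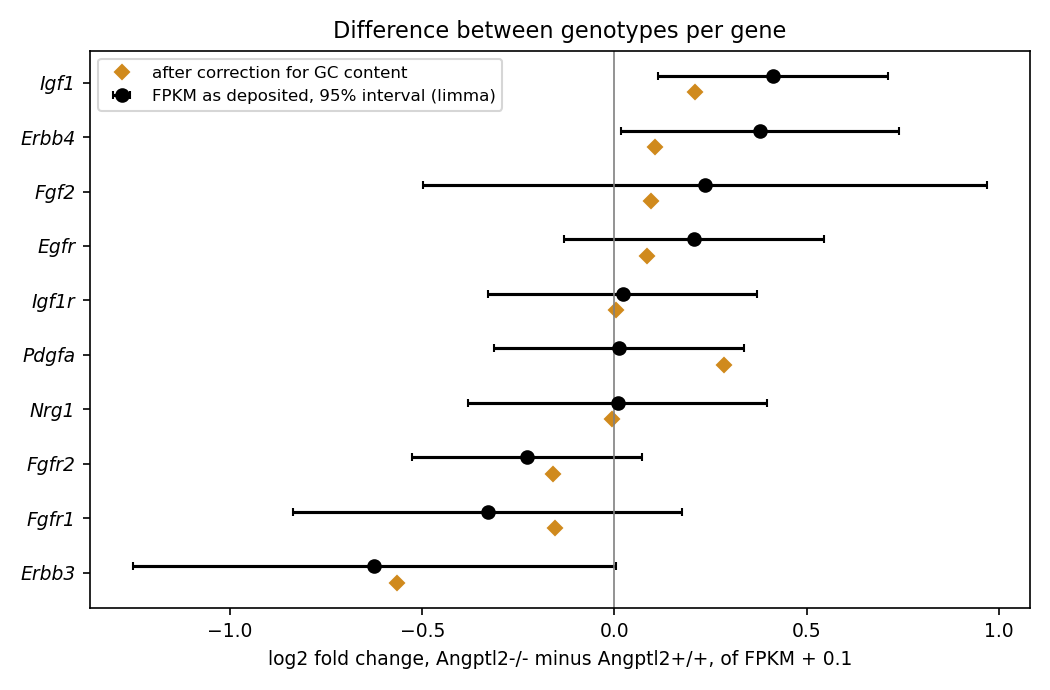
Log2 fold change, Angptl2-/- minus Angptl2+/+, of FPKM + 0.1 (horizontal axis) for each of the 10 genes (rows), as deposited with the 95% interval from limma (black) and after the correction for GC content (orange diamonds). Only the intervals of Igf1 (0.11 to 0.71) and Erbb4 (0.02 to 0.74) leave out 0, and the correction moves both towards 0 and Pdgfa away from it.

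Marker lists were set beside these genes library by library. Erbb3 and the summed mature oligodendrocyte markers were both lowest in Angptl2-/- replicate 1 and both highest in Angptl2+/+ replicate 1. That sum was 615, 829 and 1139 FPKM in Angptl2-/- brains, against 1951, 969 and 953 FPKM in Angptl2+/+ brains, with 0 of 10 markers at a positive fold change and a median log2 fold change of -0.62. No marker of the list was at 0. The precursor markers summed to 140 to 162 FPKM in Angptl2-/- and 140 to 223 FPKM in Angptl2+/+, with 2 of 8 positive and a median of -0.31. After the GC correction the median was 0.09 for the precursor markers and -0.55 for the mature markers. Mbp, Mag and Myrf of the mature list and Olig2 of the precursor list are among candidate genes that the study picked on these libraries. The direction of these markers is thus not independent evidence. The part of these lists in the Erbb3 values was not tested.

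Microglia, a known source of Igf1, had summed markers of 127, 119 and 109 FPKM in Angptl2-/- brains, against 121, 137 and 126 FPKM in Angptl2+/+ brains. Igf1 was highest in the library with the lowest microglial sum, Angptl2-/- replicate 3. The meningeal fibroblast sums also overlapped (6.95 to 13.2 FPKM in Angptl2-/-, 5.04 to 17.8 FPKM in Angptl2+/+). Lists that separated the genotypes as Igf1 and Egfr did were the choroid plexus markers, higher in Angptl2-/- with 6 of 6 positive, and in the other direction the endothelial and red blood cell markers. The endothelial sum was 57.9 to 68.3 FPKM in Angptl2-/- and 77.0 to 79.8 FPKM in Angptl2+/+, and the red blood cell sum 125 to 274 FPKM in Angptl2-/- and 302 to 498 FPKM in Angptl2+/+. Choroid plexus markers were at 934 FPKM in Angptl2-/- replicate 2, where Igf1 was the middle value of its genotype. Their part in the Igf1 and Egfr values was not tested.

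Erbb4 was highest in the library with the highest sum of striatal markers, Angptl2-/- replicate 3. That sum was 75.9, 132 and 165 FPKM in Angptl2-/- brains, against 34.5, 89.7 and 61.7 FPKM in Angptl2+/+ brains, with 6 of 6 markers positive. Angptl2+/+ replicate 2, with the highest striatal sum of its genotype, had the lowest Erbb4 of all libraries (7.57 FPKM). The general neuronal markers overlapped, with 1139 to 1246 FPKM in Angptl2-/- and 1014 to 1376 FPKM in Angptl2+/+. The newly formed oligodendrocyte, astrocyte, mural and hypothalamic sums overlapped as well. Cerebellar markers were at 43.5 to 51.3 FPKM in Angptl2-/- and at 43.4 to 110 FPKM in Angptl2+/+. The part of the brain regions in the Erbb4 values was not tested, and the labels do not give how the brains were cut.

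**Figure D4:**
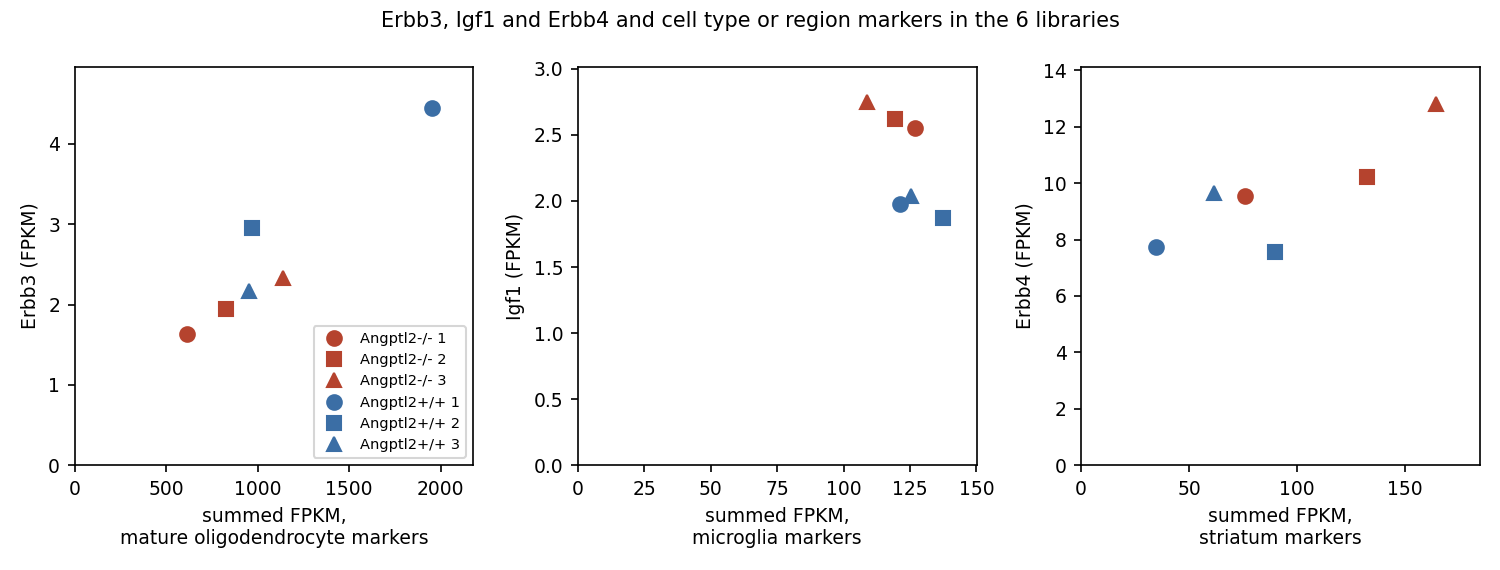
FPKM of Erbb3, Igf1 and Erbb4 (vertical axes) in the 6 libraries against the summed FPKM of mature oligodendrocyte, microglia and striatum markers (horizontal axes), Angptl2-/- in red and Angptl2+/+ in blue, with a symbol per replicate number. Angptl2+/+ replicate 1 is at the top right for Erbb3 (4.45 FPKM), and the microglial sums overlap while Igf1 does not. Angptl2-/- replicate 3 is at the top right for Erbb4 (12.8 FPKM), whereas Angptl2+/+ replicate 2 has the lowest Erbb4 (7.57 FPKM) at the highest striatal sum of its genotype.

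The genes most like Igf1 and Erbb4 over the 6 libraries were looked up among the 11721 protein-coding genes whose mean FPKM reached 1, by the Pearson correlation of log2(FPKM + 0.1). For Igf1 they were Ptprz1, a receptor-type phosphatase of precursors and astrocytes (r = 0.995), Rsl1 (r = 0.995) and Lsamp, a neuronal adhesion protein gene (r = 0.991). For Erbb4 they were Papolg, a poly(A) polymerase gene (r = 0.997), Cpsf2, a subunit gene of the cleavage and polyadenylation complex (r = 0.997), and Syt14, a synaptotagmin gene (r = 0.995). The correlations describe 6 points that share their libraries and depth. All 6 of these genes also have a low GC content, 42.2% for Ptprz1, 42.0% for Rsl1, 43.9% for Lsamp, 40.1% for Papolg, 43.8% for Cpsf2 and 43.0% for Syt14.

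The other genes of the pathways were read from the same fit, in lists of relatives, regulators and effectors. None of their genes passed the adjusted p. At an unadjusted limma p under 0.05 the shares over all tested genes were 7.09% higher and 9.12% lower, and 3.24% and 3.13% after the GC correction, and the counts of the lists are to be read against these. In the FGF family with its feedback genes, 26 of 39 genes were tested, 1 was higher and 2 were lower at an unadjusted limma p under 0.05, and 8 fold changes were positive and 18 negative, with a median of -0.14. Before the GC correction both shares lay below those of all genes. After it 1 was higher, Spry3, which had no GC content available and so was left uncorrected. After it 1 was lower, Fgf9 (log2 fold change -0.18 before and -0.35 after). The genes lower before the correction were Etv4, a transcription factor induced by FGF signals, and Fgfr3, an FGF receptor of astrocytes and oligodendrocytes. Neither was past that threshold after it. Etv4 had 2.25, 1.83 and 1.59 FPKM in Angptl2-/- brains, against 2.49, 3.41 and 2.62 FPKM in Angptl2+/+ brains (log2 fold change -0.56, limma adjusted p = 0.274). Fgfr3 had 7.96, 9.64 and 10.1 FPKM in Angptl2-/- brains, against 11.9, 10.7 and 16.8 FPKM in Angptl2+/+ brains (log2 fold change -0.49, limma adjusted p = 0.284). The groups did not overlap in either gene, and Fgfr3 is among the candidate genes that the study picked on these libraries, so its direction is not independent evidence. Corrected for GC content, Etv4 was at -0.19 and Fgfr3 at -0.21 on the log2 scale. Spry3, a member of the Sprouty family of inhibitors, was the higher gene, with 4.11, 4.39 and 5.26 FPKM in Angptl2-/- brains, against 3.89, 3.08 and 3.70 FPKM in Angptl2+/+ brains (log2 fold change 0.36, limma adjusted p = 0.299). The most abundant gene of the list, Fgf13, encodes an intracellular FGF homologue and had 42.5, 50.1 and 41.8 FPKM in Angptl2-/- brains, against 42.3, 38.5 and 48.0 FPKM in Angptl2+/+ brains. Kl, a co-receptor for Fgf23 that also stands on the choroid plexus marker list, was the highest point of the list (log2 fold change 1.58, limma adjusted p = 0.318, groups overlapping) and is named after its values were seen.

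In the PDGF family all 6 genes were tested, with 1 higher and 0 lower at an unadjusted limma p under 0.05 and a median log2 fold change of 0.04. Neither direction had a gene past it after the GC correction. The higher gene was Pdgfc, a ligand of Pdgfra. It had 1.94, 2.36 and 2.33 FPKM in Angptl2-/- brains, against 1.61, 1.67 and 1.77 FPKM in Angptl2+/+ brains, without overlap (log2 fold change 0.37, limma adjusted p = 0.297, and 0.24 after the GC correction). Pdgfrb, the receptor of pericytes, had 6.15, 4.95 and 3.84 FPKM in Angptl2-/- brains, against 5.93, 7.16 and 4.73 FPKM in Angptl2+/+ brains, with overlap.

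In the IGF and insulin family 15 of 20 genes were tested, 0 were higher and 3 lower at an unadjusted limma p under 0.05, and the median log2 fold change was -0.12. After the GC correction 0 were higher and 1 lower. The 3 lower genes are among 7 tested genes of IGF binding proteins and their relatives, a group singled out after the values were seen. Binding proteins carry IGFs outside the cell. The others were Igfbp5 (-0.24), Igfbp2 (-0.12), Igfbp3 (0.10) and Igfbpl1 (0.54 on the log2 scale). Igfbp4 had 17.2, 16.9 and 16.7 FPKM in Angptl2-/- brains, against 22.8, 23.8 and 28.8 FPKM in Angptl2+/+ brains (log2 fold change -0.56, SE 0.11, limma adjusted p = 0.273). Igfbp6, whose protein prefers IGF2, had 6.38, 8.36 and 7.36 FPKM in Angptl2-/- brains, against 12.9, 12.3 and 22.6 FPKM in Angptl2+/+ brains (log2 fold change -1.06, SE 0.24, limma adjusted p = 0.273). All Angptl2-/- libraries were below all Angptl2+/+ libraries in both genes. Their GC contents are 55.9% and 60.7%, and corrected for it Igfbp4 was at -0.34 and Igfbp6 at -0.67 on the log2 scale. Igfbp7, made by blood vessels, had 23.6, 20.2 and 17.0 FPKM in Angptl2-/- brains, against 22.8, 28.9 and 25.9 FPKM in Angptl2+/+ brains. Those groups overlapped, and the log2 fold change of -0.36 became -0.02 after the correction. Igfbp5, the most abundant gene of the list, had 29.0, 21.3 and 20.8 FPKM in Angptl2-/- brains, against 34.4, 25.5 and 24.2 FPKM in Angptl2+/+ brains, with overlap.

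In the EGF and neuregulin family 13 of 20 genes were tested, with 5 higher and 2 lower at an unadjusted limma p under 0.05 and a median log2 fold change of 0.07. After the GC correction 1 was higher, Tgfa, which encodes a ligand of Egfr (log2 fold change 0.51 before and 0.59 after), and 0 were lower. Nrg2, a neuregulin of neurons, was the related gene with the smallest p. It had 1.86, 1.58 and 1.70 FPKM in Angptl2-/- brains, against 2.89, 2.85 and 2.85 FPKM in Angptl2+/+ brains (log2 fold change -0.71, SE 0.13, limma adjusted p = 0.273). The groups did not overlap, unlike those of Nrg1, and the Angptl2+/+ values were nearly equal. Its GC content is 60.9%, and the log2 fold change was -0.32 after the correction. Lrig1, a membrane protein that lowers the amount of ErbB receptors, had 6.82, 5.12 and 5.50 FPKM in Angptl2-/- brains, against 10.5, 7.84 and 7.01 FPKM in Angptl2+/+ brains (log2 fold change -0.52, limma adjusted p = 0.277). Lrig2, of the same family, lay in the other direction, with 3.60, 3.94 and 4.21 FPKM in Angptl2-/- brains, against 3.15, 3.02 and 2.95 FPKM in Angptl2+/+ brains (log2 fold change 0.35, limma adjusted p = 0.274). Both were without overlap between genotypes. Adam10, a protease that sheds membrane-bound ligands and the most abundant gene of the list, had 22.8, 26.2 and 27.3 FPKM in Angptl2-/- brains, against 19.8, 21.1 and 22 FPKM in Angptl2+/+ brains (log2 fold change 0.27, limma adjusted p = 0.290). Corrected for GC content, Lrig1 was at -0.35, Lrig2 at 0.19 and Adam10 at 0.08 on the log2 scale.

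Of the effectors that these receptors share all 42 genes were tested, with 6 higher and 4 lower at an unadjusted limma p under 0.05 and a median log2 fold change of 0.10. After the GC correction 2 were higher and 0 lower. Akt2, a kinase downstream of insulin and IGF receptors, had 13, 14.5 and 12.7 FPKM in Angptl2-/- brains, against 16.1, 17.0 and 18.4 FPKM in Angptl2+/+ brains (log2 fold change -0.36, limma adjusted p = 0.273). Rasa1, a Ras GTPase-activating protein gene, had a log2 fold change of 0.36 (limma adjusted p = 0.273) at a GC content of 38.1%, and -0.00 after the GC correction. Map2k2, a MAP kinase kinase gene, had 10.6, 8.53 and 8.50 FPKM in Angptl2-/- brains, against 11.2, 13.5 and 11.5 FPKM in Angptl2+/+ brains (log2 fold change -0.39, limma adjusted p = 0.277). All libraries of Akt2 and Map2k2 were lower in Angptl2-/-, and after the GC correction their log2 fold changes were -0.17 and -0.07.

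Within the lists the fold changes followed GC content as in the whole table. In the EGF and neuregulin list the median log2 fold change was 0.27 over the 7 genes under 50% GC and -0.32 over the 6 others. In the IGF and insulin list it was 0.23 over 3 genes and -0.21 over 12, and in the FGF list 0.06 over 13 genes and -0.25 over 12. In the effector list it was 0.24 over 20 genes and -0.10 over 22. After the GC correction the list medians were -0.07 for the FGF list, 0.03 for the PDGF list, 0.00 for the IGF list, -0.04 for the EGF list and 0.06 for the effectors.

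**Figure D5:**
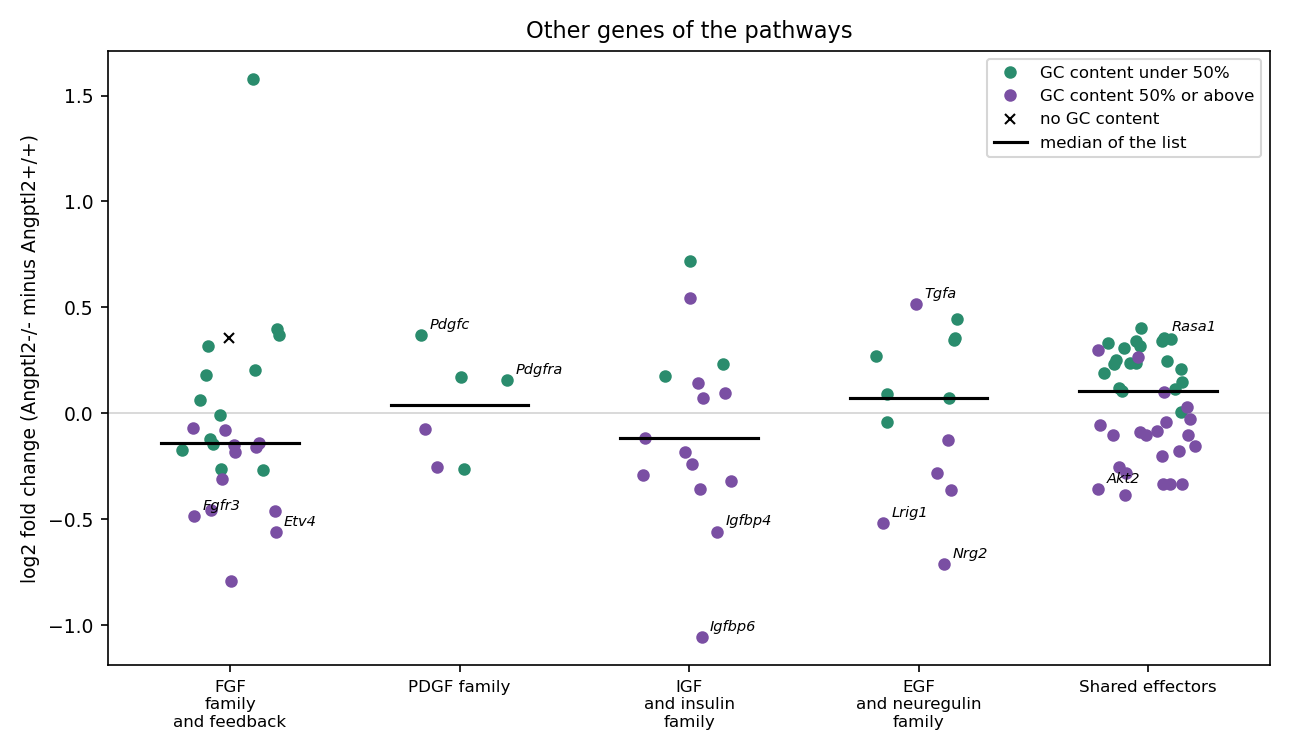
Log2 fold change, Angptl2-/- minus Angptl2+/+ (vertical axis), of the tested genes of each list (columns), coloured by GC content under 50% (green) or of 50% and above (purple), with the median of each list as a bar. Purple points lie mostly below 0, with Nrg2 at -0.71 and Igfbp6 at -1.06, and green points mostly above it.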

How the data were processed

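Total RNA of postnatal day 15 mouse brain (3 Angptl2-/- and 3 Angptl2+/+ samples) was sequenced as paired-end reads. For each gene and library the authors deposited an FPKM value. The labels name Bowtie 0.12.2 and mm8, whereas the identifiers fit GENCODE M21 (GRCm38), which holds 54495 of 54532 and was used for symbols, lengths and GC content. How reads were counted, strand included, is not given in the sources used here. FPKM multiplied by summed exon length gave whole fragments, within 0.05, for 96.6 to 96.7% of values above 0. These fragments were used for the counting error, voom, the scaling without mitochondrial and haemoglobin genes, and the check for copied libraries.

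The 14862 genes whose mean FPKM reached 0.5 were tested on log2(FPKM + 0.1) by limma 3.58.1 (R 4.3.3) with an intensity trend, two-sided, and p-values were Benjamini-Hochberg adjusted over all of them at a threshold of 0.05. The targeted gene and single values used exact permutation over 20 placements. No correlation between libraries was high enough for a copy (r of 0.934 to 0.966, chi-square per degree of freedom of at least 17.0). Code was tested on simulated data. Python 3.11.15 with pandas 2.3.3, numpy 2.4.6 and matplotlib 3.10.9 made the tables and figures.

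Named genes were Angptl2, the 10 genes, the 3 of smallest p and the most abundant of each related list, the most abundant of each marker list, and the 3 most like Igf1 and Erbb4. Of the marker genes so chosen Ttr is given, and some genes named by the rule are not reported here. Gapdh, Xist, Erbb2, Kl, Fgf9 and Tgfa were chosen after their values were seen. The 10 genes and the lists were chosen with earlier results of these data known. Alternatives were other pseudocounts, filters, scalings, moderation, GC and length corrections, voom, a replicate block and leaving out each library.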

Additional observations from a re-analysis of the deposited data

How the results depend on the processing

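All 20 alternatives ran, except that Fgf2 falls under a mean FPKM of 1. The count of genes past an adjusted p of 0.05 was 0 in limma and 1, Ttr, with the replicate block. It ranged from 0 to 1 over the fits that leave out 1 library, with 1 without Angptl2+/+ replicate 1. No adjusted p of the 10 genes was under 0.05 in any alternative. The unadjusted p was under 0.05 in 18 of 20 alternatives for Igf1, the exceptions being the GC corrections with and without the block, in 12 for Erbb4 and in 4 for Erbb3. Igf1 kept a log2 fold change of 0.21 to 0.44, Erbb4 0.11 to 0.49, Egfr 0.08 to 0.25 and Erbb3 -0.86 to -0.36. The number of the 10 genes at an unadjusted p under 0.05 was 0 with the GC correction, 1 without the intensity trend, 3 with quantile normalization (Igf1, Erbb4, and Erbb3 lower), 3 with the length correction (Igf1, and Fgfr2 and Erbb3 lower) and 1 to 4 without 1 library. Fgfr1 was past it in 1 alternative, without Angptl2+/+ replicate 3. The genes at an unadjusted p under 0.05 were 482 higher and 465 lower with the GC correction, and 545 and 593 with the block as well. They were 481 and 790 without Angptl2-/- replicate 2, 465 and 835 without Angptl2-/- replicate 3, 599 and 1000 without Angptl2+/+ replicate 1, and 676 and 881 without Angptl2+/+ replicate 2. Some fold changes turned sign. Nrg1 was -0.0076 with the GC correction, with or without the block, -0.0901 with the length correction and -0.0053 with voom. Fgf13 was -0.0266 and Rasa1 -0.0049 with the GC correction, with or without the block. Igf1r was -0.13 with the length correction. Leaving out libraries gave Fgfr1 -0.53 to -0.18, Fgf2 0.08 to 0.43, Nrg1 -0.0307 to 0.0618, Igf1r -0.10 to 0.15, Pdgfa -0.10 to 0.10 and Fgf13 -0.0187 to 0.15. The cause was not tested. Leaving out libraries moved the median of the IGF and insulin list between -0.37 and 0.10.

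Same-numbered samples did not deviate together (correlations 0.037, -0.069 and 0.162, against -0.256 to 0.257 for other numbers), so the replicate number was not taken as a pairing, and the block is only an alternative. At 3 libraries per genotype the exact test cannot go below 0.1. The Angptl2 difference was -0.42 with a pseudocount of 1 and -1.54 with 0.01. Fgf2 and Angptl2 rest on the fewest fragments, and sex, region and batch were not part of any fit.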
